A study of Mus musculus with 4 samples.

Results

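The genes described here encode the subunits of AMP-activated protein kinase (AMPK) and of the LKB1 complex that activates it, and they were taken from the table by gene symbol. The 10 members are Prkaa1 and Prkaa2 (catalytic alpha subunits), Prkab1 and Prkab2 (beta subunits), Prkag1 and Prkag2 (gamma subunits), Stk11 (the kinase LKB1), Strada and Stradb (STRAD pseudokinases) and Cab39 (the scaffold MO25). They are 10 of 28193 genes in the deposited table, and all 10 exceeded the minimum of 5 counts per library that 22338 genes passed to be tested. The data are fosTRAP-seq, in which neurons with Fos activity at the time of tagging receive an HA-tagged ribosomal protein Rpl22, so that the mRNA bound to their ribosomes can be pulled down and sequenced. Both groups were male C57BL/6J mice, 3 to 5 months old, which the labels give as genotype cFos-Cre:Ribotag and dorsal hippocampus. According to the methods, the tools were viral: AAV8 c-Fos-ERT2-Cre-ERT2-PEST together with AAV9 carrying Cre-dependent HA-Rpl22 behind an EF1a promoter, injected into CA1. Every mouse, controls included, went through 5 h of sleep deprivation with 4-hydroxytamoxifen at ZT2 on day 0, which tagged the cells active then. On day 7 the SD group was deprived of sleep for a further 5 h, the NSD group was left undisturbed, and CA1 was collected at ZT5. The comparison of SD with NSD asks how the ribosome-bound mRNA of these previously tagged neurons differs after a second sleep deprivation.

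Tissue from 5 mice was pooled for each library, giving 2 libraries from 10 mice in each group, so every standard deviation (s.d.) here is a spread between pools. The tag depends on Fos activity, and neither the Fos-driven Cre nor the EF1a promoter is restricted to pyramidal neurons. The labels also number the libraries by batch, with 1 NSD and 1 SD library in batch 1 and in batch 2. Library totals ran from 153511705 to 195910235 estimated counts. The groups also stood apart in composition: genes of the annotation class TEC (transcripts still lacking experimental evidence) held 0.210% to 0.273% of the counts in NSD and 0.118% to 0.157% in SD, and 27444 and 27551 genes were detected in NSD against 27122 and 26179 in SD, with SD library 2 the lowest in both. The part of this difference in the values of the members was not tested. The CA1 pyramidal markers Wfs1, Fibcd1, Pou3f1, Mpped1, Neurod6, Slc17a7 and Camk2a were present in every library and summed to 6041 to 6588 CPM (counts brought to an equal total in each library, with edgeR's TMM factors). Markers of other cells were present too, with sums of 1403 to 1694 CPM for oligodendrocytes, 719 to 810 for interneurons, 414 to 463 for astrocytes, 42.0 to 54.9 for microglia, 20.1 to 51.3 for endothelial cells, 31.5 to 40.4 for dentate granule cells and 6.42 to 7.86 for CA3 neurons. In bulk samples of this kind, fewer cells of a type and less RNA per cell cannot be told apart.

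AMPK is the energy sensor of the cell. Its gamma subunit binds adenine nucleotides, its beta subunit holds the complex together and carries a glycogen-binding module, and its alpha subunit phosphorylates targets that slow anabolic pathways and raise the supply of ATP when energy runs low. LKB1 activates AMPK by phosphorylating its alpha subunit, and LKB1 is itself active when bound to a STRAD pseudokinase and MO25. In neurons LKB1 is best known for setting up axons through the related SAD kinases, and a calcium-dependent kinase, CaMKK2, is a further activator of AMPK. The data are mRNA levels, so the phosphorylation that switches AMPK on was not measured.

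In the beta and STRAD pairs of paralogs, the levels of the partners lay on opposite sides of the comparison, so their promoters are printed here side by side. Each is the stretch upstream of the RefSeq start, 5′ to 3′ on the gene's strand in build GRCm39, trimmed to bases outside annotated exons of the gene. Capitals mark the GC box (GGGCGG on either strand), a sequence to which factors of the Sp family bind, and the short form of the cAMP response element (CRE, TGACG on either strand), to which CREB binds. The Prkab1 stretch is chr5:116162568-116162737 on the minus strand, Prkab2 is chr3:97565278-97565508 on the plus strand, Strada is chr11:106084465-106084679 on the minus strand, and Stradb is chr1:59012431-59012671 on the plus strand.
Prkab1: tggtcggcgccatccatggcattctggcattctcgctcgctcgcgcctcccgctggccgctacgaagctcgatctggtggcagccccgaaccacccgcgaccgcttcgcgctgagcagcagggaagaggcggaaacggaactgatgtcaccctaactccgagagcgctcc
Prkab2: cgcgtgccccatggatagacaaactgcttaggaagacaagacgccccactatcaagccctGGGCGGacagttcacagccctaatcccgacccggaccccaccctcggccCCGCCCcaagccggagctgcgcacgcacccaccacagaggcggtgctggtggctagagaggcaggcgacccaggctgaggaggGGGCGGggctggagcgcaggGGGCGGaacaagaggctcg
Strada: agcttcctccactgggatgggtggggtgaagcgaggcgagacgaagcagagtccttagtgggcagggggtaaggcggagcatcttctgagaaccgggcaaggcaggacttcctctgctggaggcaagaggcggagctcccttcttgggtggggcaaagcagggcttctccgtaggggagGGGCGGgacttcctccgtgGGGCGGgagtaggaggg
Stradb: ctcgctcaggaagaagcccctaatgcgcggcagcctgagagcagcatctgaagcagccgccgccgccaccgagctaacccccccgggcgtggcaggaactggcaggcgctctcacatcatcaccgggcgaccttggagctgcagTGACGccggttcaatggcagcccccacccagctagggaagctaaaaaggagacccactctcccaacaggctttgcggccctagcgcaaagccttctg
The printed Prkab2 stretch held 4 GC boxes and that of Strada 2, the Stradb stretch held 1 short CRE, and the Prkab1 stretch held 0 matches to either motif. In the beta pair the gene with GC boxes was the one at the higher level in SD than in NSD, and in the STRAD pair it was the one at the lower level. In all 32851 RefSeq promoter windows, the search covered the first 250 bases, which lie upstream of the RefSeq start. Of these windows, 32.7% held a GC box, 17.8% the short CRE and 1.55% the full CRE (TGACGTCA, which contains the short form). Among the members, windows of Prkaa2, Prkag1, Stk11 and Stradb held a short CRE, windows of Prkaa1, Prkaa2, Prkab2, Prkag1, Prkag2, Strada and Cab39 held a GC box, and the full CRE was in 0 windows of the 10 genes. A match is a description of the letters in the window, and the counts are per gene, so they do not separate transcripts from different starts, of which RefSeq gives 3 for Prkag2. The RefSeq start of Strada lies inside the span that GENCODE annotates for the gene.

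No member was called different between SD and NSD, and the members leaned in both directions. Genes were called where edgeR's quasi-likelihood test of condition, adjusted by Benjamini-Hochberg over all genes tested, gave an adjusted p under 0.05 and the fold change exceeded 1.2. Of the 10 members, 0 were called higher, where 0.77% of all genes were, and 0 were called lower, where 2.33% of all genes were. At an unadjusted p under 0.05, 3 members were higher in SD (Prkab2, Prkaa2 and Stradb), against 6.86% of all genes, and 1 was lower (Strada), against 12.2%. All 10 members are protein-coding, and among the 15551 protein-coding genes of the same fit the shares were 0.952% called higher, 0.54% called lower, 8.86% higher at an unadjusted p under 0.05 and 5.76% lower, so the excess of lower genes lay outside the protein-coding class. With the batch number as a replicate block in the same test, Strada was called lower, and 0 members were called higher. That fit called 2.99% of all genes higher and 8.47% lower. DESeq2 called 0 members in either direction, where it called 671 genes higher and 1296 lower over the whole table. Prkab2 passed the adjusted p alone in DESeq2.

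By the libraries themselves, both SD values lay above both NSD values for 3 members, Prkaa2, Prkab2 and Stradb, and below them for 2, Prkab1 and Strada. These are 30% and 20% of the members. Among all protein-coding genes the same held for 26.5% and 20.0%, so these counts are close to the background. The other 5 members, Prkaa1, Prkag1, Prkag2, Stk11 and Cab39, had SD and NSD values that overlapped. The median log2 fold change of the members was 0.044, beside 0.018 for all protein-coding genes, and 7 of the 10 were above 0.

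**Figure D1:**
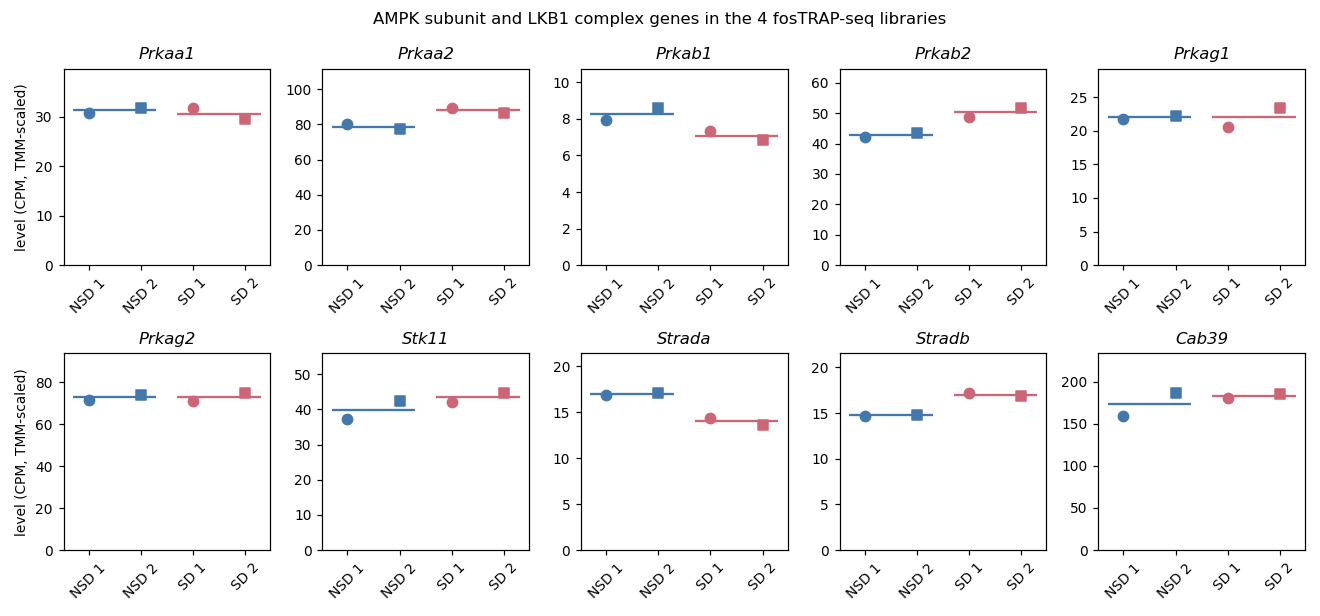
Level of each member in CPM (vertical axis, from 0, scaled by TMM factors) in each of the 4 libraries, with NSD in blue, SD in red, circles for batch 1, squares for batch 2 and a line at each group mean. Both SD points lie above both NSD points for Prkaa2, Prkab2 and Stradb and below them for Prkab1 and Strada, and the groups overlap for the other 5 genes.

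The alpha subunits carry the kinase domain. Prkaa2 (ENSMUSG00000028518, chr4:104887071-104967087, minus strand), which encodes alpha2, the form known from muscle and neurons, was at 80.1 and 77.3 CPM in NSD libraries 1 and 2 and at 89.4 and 86.7 CPM in SD libraries 1 and 2. Both SD libraries were higher, and the group means were 78.7 ± 1.97 and 88.0 ± 1.94 CPM (s.d., n = 2 each). On the log2 scale the fold change was 0.16 with a standard error of 0.064 and an edgeR adjusted p of 0.217, and it was 0.16 within batch 1 and 0.16 within batch 2. Prkaa1 (ENSMUSG00000050697, chr15:5173343-5211380, plus strand), which encodes the widely expressed alpha1, was at 30.9 and 31.8 CPM in NSD and at 31.7 and 29.5 CPM in SD. Its groups overlapped, and its log2 fold change was -0.03 with a 95% interval from -0.21 to 0.14 and an edgeR adjusted p of 0.869. The batches lay on opposite sides for Prkaa1, at 0.04 and -0.11, and without SD library 2 its log2 fold change was 0.04.

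The beta subunits bridge alpha and gamma. Prkab2 (ENSMUSG00000038205, chr3:97565509-97581128, plus strand) had the smallest unadjusted p of the members. It was at 42.2 and 43.4 CPM in NSD libraries 1 and 2 and at 48.8 and 51.8 CPM in SD libraries 1 and 2, so that both SD libraries were higher and the groups did not overlap. The means were 42.8 ± 0.838 and 50.3 ± 2.08 CPM (s.d., n = 2 each), a fold change of 1.17. The log2 fold change was 0.23 with a standard error of 0.068 and a 95% interval from 0.08 to 0.39, and the edgeR adjusted p was 0.103. It was 0.21 within batch 1 and 0.25 within batch 2. The adjusted p was 0.0188 in edgeR with the replicate block and 0.0299 in DESeq2, but the fold change stayed under 1.2 in both, so neither fit called it. Prkab1 (ENSMUSG00000029513, chr5:116151645-116162567, minus strand), which encodes the other beta subunit, had the lowest counts of the members, 1292 to 1352 per library. Its levels were 7.96 and 8.61 CPM in NSD and 7.35 and 6.83 CPM in SD, with both SD libraries lower. The log2 fold change of Prkab1 was -0.22 with a standard error of 0.12 and an edgeR adjusted p of 0.365, and its 95% interval, from -0.50 to 0.05, included 0.

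The gamma subunits bind AMP, ADP and ATP and so set the response to energy state. Prkag2 (ENSMUSG00000028944, chr5:25067742-25305640, minus strand) was at 71.5 and 73.9 CPM in NSD and at 71.1 and 74.9 CPM in SD. Prkag1 (ENSMUSG00000067713, chr15:98710678-98729402, minus strand) was at 21.7 and 22.2 CPM in NSD and at 20.6 and 23.4 CPM in SD. For both genes SD library 1 was the lowest of the 4 libraries and SD library 2 the highest. The log2 fold change was 0.01 for Prkag2, with a 95% interval from -0.14 to 0.16 and an edgeR adjusted p of 0.976. It was 0.00 for Prkag1, with an interval from -0.20 to 0.20 and an edgeR adjusted p of 0.999. The exons of Prkag1 share 1511 bases, 38.8% of their length, with the antisense lncRNA gene B130046B21Rik, whose counts came to 41.9% of those of Prkag1. The library kit keeps the strand, but the strand setting of the counting is not given in the sources used here, so reads of these genes may not be fully separated. The remaining gamma gene, Prkag3, known from skeletal muscle, had 0 to 17 counts per library and was not tested.

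LKB1, from Stk11 (ENSMUSG00000003068, chr10:79951637-79966516, plus strand), phosphorylates AMPK and a family of related kinases. Its mRNA was at 37.3 and 42.2 CPM in NSD libraries 1 and 2 and at 42.1 and 44.7 CPM in SD libraries 1 and 2. NSD library 1 was the lowest, and NSD library 2 lay just above SD library 1, so the groups overlapped. The log2 fold change was 0.13 with a 95% interval from -0.06 to 0.31 and an edgeR adjusted p of 0.472. It moved to 0.07 without NSD library 1 and to 0.22 without NSD library 2. Stk11 shares 237 exon bases with Cbarp on the opposite strand, a gene with 745% of its counts and a log2 fold change of 0.08.

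STRAD proteins have a kinase fold without kinase activity and hold LKB1 in its active shape. Strada (ENSMUSG00000069631, chr11:106054156-106092994, minus strand) was at 16.9 and 17.1 CPM in NSD libraries 1 and 2 and at 14.4 and 13.6 CPM in SD libraries 1 and 2. Both SD libraries were lower, with means of 17.0 ± 0.145 and 14.0 ± 0.553 CPM (s.d., n = 2 each). Its log2 fold change was -0.28 with a standard error of 0.087 and a 95% interval from -0.48 to -0.08, and the edgeR adjusted p was 0.123. Within the batches the log2 difference was -0.23 and -0.33. With the replicate block the log2 fold change was again -0.28 and the edgeR adjusted p was 0.0362, which made Strada the member called by that fit. In DESeq2 the log2 fold change was -0.26 with an adjusted p of 0.111. Strada shares 180 exon bases with Ccdc47 on the same strand, a gene with 495% of its counts whose log2 fold change was 0.09.

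Stradb (ENSMUSG00000026027, chr1:59012681-59034874, plus strand), the paralog of Strada, was at 14.7 CPM in both NSD libraries and at 17.2 and 16.8 CPM in SD libraries 1 and 2. Both SD libraries were higher, and the means were 14.7 ± 0.014 and 17.0 ± 0.287 CPM (s.d., n = 2 each). Its log2 fold change was 0.21 with a standard error of 0.085 and an edgeR adjusted p of 0.229. Within batches 1 and 2 it was 0.23 and 0.19, and with the replicate block the edgeR adjusted p was 0.109. Stradb shares 406 exon bases with Trak2 on the opposite strand, a gene with 1505% of its counts that was itself at a log2 fold change of 0.18, so the part of Trak2 reads in the value of Stradb was not tested.

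Cab39 (ENSMUSG00000036707, chr1:85721162-85779297, plus strand) encodes MO25, which clamps LKB1 and STRAD together. It was at 159 and 187 CPM in NSD libraries 1 and 2 and at 180.3 and 185 CPM in SD libraries 1 and 2. NSD library 1 stood below the other 3 libraries, and the groups overlapped. For Cab39 the log2 fold change was 0.08 with a 95% interval from -0.12 to 0.29 and an edgeR adjusted p of 0.715, and without NSD library 1 it was -0.00067. Its paralog Cab39l was at 17.0 and 19.5 CPM in NSD and at 21.9 and 19.8 CPM in SD, with a log2 fold change of 0.19 and an edgeR adjusted p of 0.338.

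**Figure D2:**
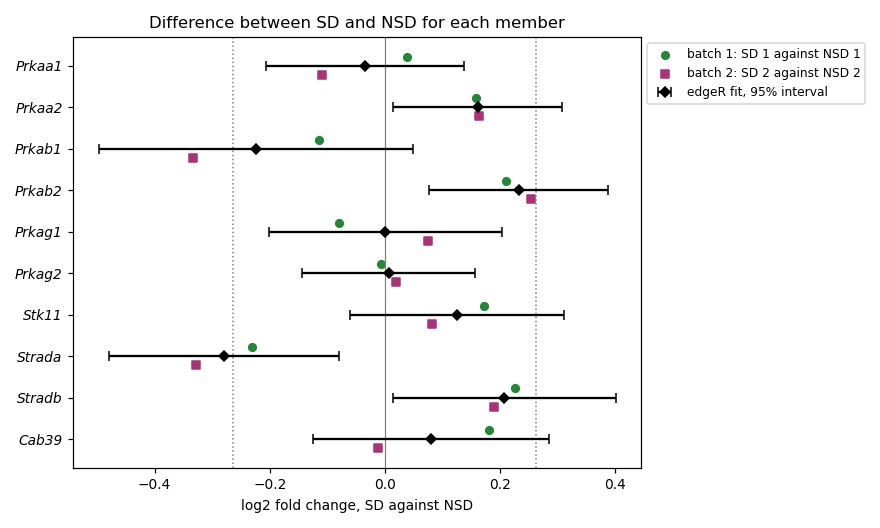
Log2 fold change of SD against NSD (horizontal axis) for each member, with the edgeR estimate and its 95% interval in black, batch 1 in green, batch 2 in magenta and dotted lines at the fold change threshold of 1.2. The intervals of Prkaa2, Prkab2, Strada and Stradb exclude 0 before any adjustment, and the batches lie on opposite sides of 0 for Prkaa1, Prkag1, Prkag2 and Cab39.

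The levels of different members were compared per kilobase of merged annotated exons, as CPM per kilobase over the 4 libraries. Cab39 was the highest at 18.9 ± 1.37 (s.d. over 4 libraries), followed by Prkaa2, whose libraries ran from 9.28 to 10.7, Stk11 at 8.34 ± 0.622 and Prkag2 at 6.30 ± 0.161. Prkaa1 at 5.82 ± 0.202 and Prkag1 at 5.64 ± 0.300 came next, with library ranges that overlapped each other. Prkab2 was at 4.27 ± 0.414 and Prkab1 at 2.51 ± 0.250. The STRAD genes were the lowest, at 2.12 ± 0.241 for Strada and 1.65 ± 0.138 for Stradb, and the ranges of Strada and Prkab1 overlapped. Ranges of the other neighbours in this order did not overlap. Summed over paralogs, the alpha genes gave 15.3 to 16.7 CPM per kilobase, the gamma genes 11.4 to 12.5, the beta genes 6.47 to 6.98 and the STRAD genes 3.62 to 3.88. The beta genes were the lowest of the AMPK subunit classes in all 4 libraries with this length. The order rests on the length used, since many members have long alternative exons. With the longest transcript or the mean coding transcript as length, Cab39 stayed first, but Prkag2 came second, at 17.6 and 23.8 CPM per kilobase, and Prkab1 last.

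**Figure D3:**
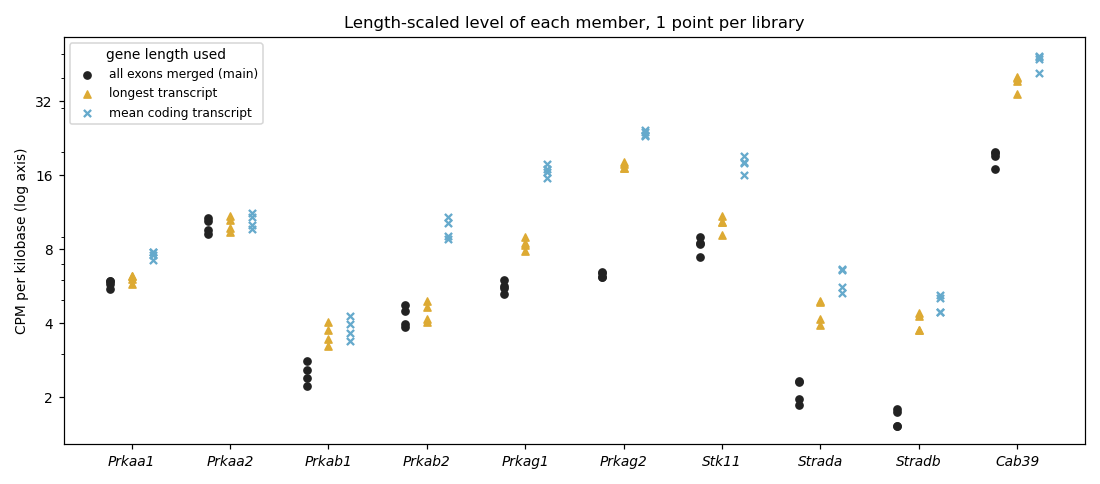
CPM per kilobase (vertical log axis) of each member, with 1 point for each of the 4 libraries and a colour and shape for each gene length used: merged exons, longest transcript or mean coding transcript. Cab39 is the highest under all 3 lengths, and the level of Prkag2 moves furthest on this log axis, from a mean of 6.30 with merged exons to 23.8 with the mean coding transcript.

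Which paralog supplied the mRNA of a subunit was compared as a share within each of the 4 pairs, a measure that does not depend on the scaling between libraries. Prkab2 made up 59.9% and 58.7% of the beta level in NSD libraries 1 and 2 and 65.1% and 68.1% in SD libraries 1 and 2, per length of merged exons. Its share was 7.34 percentage points higher in SD, and the ratio of Prkab2 to Prkab1 was 1.37 times that in NSD. The 95% Wilson interval, which covers counting error only, was 58.4% to 61.3% in NSD library 1 and 66.8% to 69.3% in SD library 2. Within batches the log2 ratio of Prkab2 to Prkab1 was 0.32 and 0.59 higher in SD.

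Stradb made up 39.9% and 39.6% of the STRAD level in NSD and 47.6% and 48.4% in SD, which is 8.28 percentage points higher. The log2 ratio of Stradb to Strada differed by 0.02 between the NSD libraries and by 0.05 between the SD libraries, and the ratio of Stradb to Strada in SD was 1.40 times that in NSD. Within batches the log2 ratio was 0.46 and 0.52 higher. By counts alone Stradb had 0.872 and 0.862 times the counts of Strada in NSD and 1.2 and 1.23 times in SD. The sum of the STRAD levels moved less than either gene, from 3.85 and 3.88 CPM per kilobase in NSD to 3.77 and 3.62 in SD.

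Prkaa2 made up 62.4% and 60.8% of the alpha level in NSD and 64.3% and 65.2% in SD, a difference of 3.16 percentage points. Prkag2 made up 52.6% and 52.9% of the gamma level in NSD and 53.8% and 51.9% in SD, so the gamma groups overlapped and the mean difference was 0.147 points. For the alpha, beta and STRAD shares, the exact permutation test over libraries gave a two-sided p of 0.33, the smallest that 2 libraries against 2 allow, and 0.444 after Benjamini-Hochberg adjustment over the 4 pairs. For the gamma share the exact permutation p was 1. Library groups of this size cannot reach a p of 0.05 in this test, and the directions had been seen in the single genes. Under each of the 3 lengths Prkaa2, Prkab2 and Prkag2 exceeded their partners in 4 of 4 libraries. Stradb was below Strada in 4 of 4 libraries with merged exons and with the mean coding transcript, but above it in both SD libraries with the longest transcript.

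**Figure D4:**
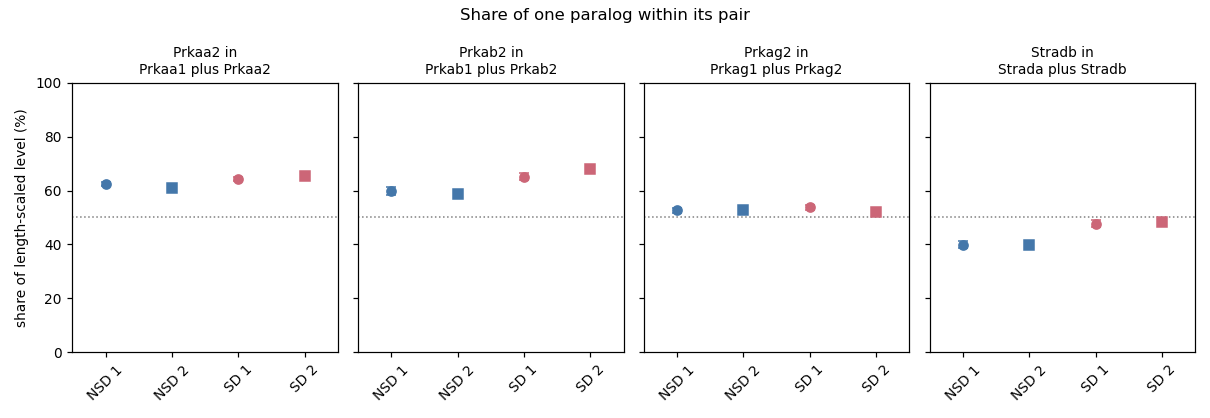
Share (vertical axis, percent of the length-scaled level of the pair) of Prkaa2, Prkab2, Prkag2 and Stradb within their pairs in each of the 4 libraries, with 95% Wilson intervals that are smaller than most points and a dotted line at equal shares. Both SD points lie above both NSD points for Prkab2, Stradb and, by less, Prkaa2, and the gamma pair shows no separation.

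Other genes of the pathway were taken from 4 lists, of which 40 of 41 genes were tested. Of the 40, 2 were called higher in SD and 0 lower, against 0.77% and 2.33% of all genes and 0.952% and 0.54% of protein-coding genes, and at an unadjusted p under 0.05 there were 9 higher and 0 lower, where 6.86% and 12.2% of all genes and 8.86% and 5.76% of protein-coding genes were. Their median log2 fold change was 0.076, and both SD libraries were above both NSD libraries for 21 of the 40 genes and below for 4, where 26.5% and 20.0% of all protein-coding genes were.

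Among 12 other kinases that LKB1 activates, Sik1, the salt-inducible kinase that keeps CREB coactivators out of the nucleus and is itself induced by cAMP, rose. It was at 21.8 and 21.7 CPM in NSD and at 31.7 and 33.3 CPM in SD, a log2 fold change of 0.58 with a standard error of 0.074 and an edgeR adjusted p of 0.0328. In this list 10 of 12 genes had a log2 fold change above 0, the median was 0.15, and both SD libraries were above both NSD libraries for 9 and below for 1 (Nuak2, named after its values were seen), beside 26.5% and 20.0% of all protein-coding genes. The call of Sik1 was lost with edgeR's filterByExpr, where the adjusted p was 0.0628, and kept when any of the 4 libraries was left out.

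Among 17 substrates of AMPK, Pfkfb3, which makes the fructose 2,6-bisphosphate that speeds glycolysis, rose from 30.2 and 30.7 CPM in NSD to 38.4 and 37.6 CPM in SD. Its log2 fold change was 0.32 with a standard error of 0.069 and an edgeR adjusted p of 0.0482. That call is close to the threshold: the adjusted p was 0.0942 with protein-coding genes alone, 0.0554 without the count filter, 0.0712 with filterByExpr and 0.0584 to 0.111 with any library left out. Over the list of substrates the median was 0.021 on the log2 scale, and 6 of 17 genes were higher and 3 lower in both SD libraries, which is near the 26.5% and 20.0% of all protein-coding genes.

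Of 7 partners and negative regulators of AMPK, edgeR called 0, and at an unadjusted p under 0.05 there were 2 higher and 0 lower, beside 8.86% and 5.76% of protein-coding genes. The median log2 fold change was 0.12, and both SD libraries were above both NSD libraries for 3 of the 7 and below for 0, beside 26.5% and 20.0%. Sesn3, a sestrin known to inhibit mTORC1 and to activate AMPK, was at 220.2 and 175 CPM in NSD and at 261 and 231 CPM in SD, and its log2 fold change was 0.31 with an edgeR adjusted p of 0.182. It was called higher in edgeR with the replicate block (adjusted p = 0.00634) and in DESeq2 (adjusted p = 0.0375), and its log2 fold change ran from 0.16 without NSD library 2 to 0.52 without NSD library 1. Of the 4 tested upstream kinases and paralogs, edgeR called 0 and none passed an unadjusted p under 0.05. In both SD libraries 3 of the 4 were higher and 0 lower, beside 26.5% and 20.0% of all protein-coding genes. Cab39l, with the values given above, had the smallest p of the 4. Beside these results, the tagged ribosomal protein gene Rpl22 was at 628 and 1045 CPM in NSD and at 610.2 and 809 CPM in SD.

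**Figure D5:**
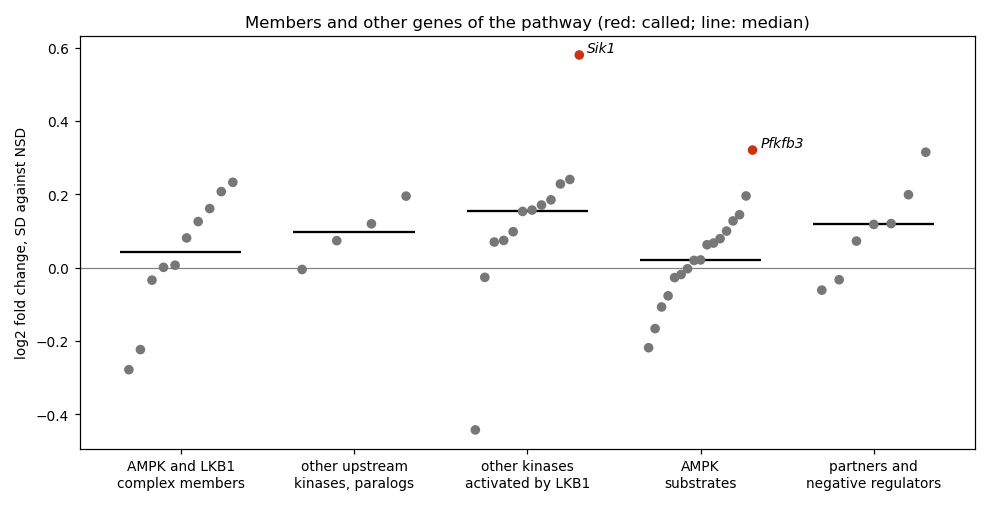
Log2 fold change of SD against NSD (vertical axis) for the members and for the 4 lists of other pathway genes, with 1 point per gene, called genes in red and a line at each median. Sik1 and Pfkfb3 are the called genes, and the medians run from 0.021 for the AMPK substrates to 0.15 for the other kinases activated by LKB1.

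Markers of another cell type moved with the comparison. All 6 endothelial markers (Cldn5, Flt1, Tek, Tie1, Pecam1 and Cdh5) had a log2 fold change under 0, with a median of -0.86, and their summed level was 37.0 to 51.3 CPM in NSD and 20.1 to 30.3 CPM in SD. Of these, edgeR called 0 without the block, where 2.33% of all genes were called lower. At an unadjusted p under 0.05, 5 were lower, beside 12.2% of all genes and 5.76% of protein-coding genes. With the block 5 were called lower, beside 8.47% of all genes. DESeq2 called Flt1, Tek, Tie1 and Cdh5 lower, but not Cldn5 or Pecam1, and it called 1296 genes lower over the whole table. Of the 7 CA1 pyramidal markers, Wfs1, Fibcd1 and Neurod6 were lower in both SD libraries and were called lower with the block and in DESeq2. Mpped1 was higher in both SD libraries, and Pou3f1, Slc17a7 and Camk2a overlapped between groups. The log2 fold change was above 0 for 3 of the 7, and the summed level was 6258 to 6588 CPM in NSD and 6041 to 6504 CPM in SD. No marker was at 0 in any library. The part of these cells in the values of Strada, Prkab1 or any other member was not tested.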

How the data were processed

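Ribosome-bound RNA was sequenced in 4 libraries, 2 NSD and 2 SD. The authors aligned the reads with STAR to mm39 (GRCm39) in Partek Flow, and deposited estimated counts per gene of Ensembl release 110 from its expectation-maximization model, without normalization. Of the genes, 55.5% had a value that was not whole (tolerance 1e-06), and values were rounded for testing. Genes above 5 counts in each of the 4 libraries were fitted with edgeR 4.0.16 in R 4.3.3 (TMM factors, quasi-likelihood test, condition as the term). The common dispersion was 0.0296, a biological coefficient of variation of 17.2%. The correlation between libraries given below used log2 values with a prior count of 2. Log2 differences within batches and log2 ratios of paralogs used no prior count. DESeq2 1.42.0, with the study's thresholds, was an alternative. Share tests were run in scipy 1.17.1 under Python 3.11.15. The fits were also run on simulated counts, with changes larger than those of the members, a single dispersion and no batch difference. That run does not show how changes of the size seen in the members are recovered.

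The labels' batch number equals the replicate number and pairs the libraries. Across genes, the deviations from the group mean of libraries with the same number correlated at 0.178. Replicate libraries differed beyond counting noise (chi-square per degree of freedom 85.2 in NSD and 48.2 in SD). The standard errors come from edgeR's quasi-likelihood fit, which draws the spread between libraries of each gene toward that of other genes. They are therefore not the spread of that gene alone.

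The members and lists were chosen with earlier results of these data known. Named beside the members were the pathway genes called with or without the block, the gene with the smallest p in a list without calls, Prkag3, Cab39l and Rpl22. Marker genes were named as lists, and genes whose exons overlap a member were named for that overlap. Gene starts and ends came from the deposited table. Strands, lengths and overlaps came from a GENCODE annotation of GRCm39, and promoter windows from RefSeq, matched for 10 of 10 members. That GENCODE release is not the Ensembl release 110 of the counts, and 27962 of the 28193 genes had a model in it. Lengths, and the levels, shares and overlaps that rest on them, may therefore include exons that the counting did not use. Alternatives were the block, DESeq2, its size factors in edgeR, 2 other count filters, protein-coding genes alone, no fold threshold, 2 other gene lengths, and each library left out in turn.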

Additional observations from a re-analysis of the deposited data

How the results depend on the processing

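The number of pools, 2 per group, limits every p-value here. No setting called a member except the replicate block, which called 1 lower (Strada). Prkaa2, Prkab2, Stk11 and Stradb were above 0 and Prkab1 and Strada below 0 in all 11 fits. Where a library was left out, the lone library of its group was assumed to vary like those of the other.

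Genes called higher and lower over the whole table, 172 and 520 in the report, were 668 and 1891 with the replicate block, 671 and 1296 in DESeq2, 50 and 80 without the count filter, 1 and 0 with filterByExpr, and 51 and 39 with protein-coding genes alone, and ran from 144 to 321 and from 87 to 1953 with a library left out. The lowest count of lower calls came without NSD library 1 and the highest without SD library 1, and the cause was not tested. Pathway genes called higher, 2 in the report, were 3 with the replicate block, 3 in DESeq2, 1 without the count filter, 0 with filterByExpr and 1 with protein-coding genes alone.

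The mean share of Prkaa2 was 57.9% with the mean coding transcript as length (63.2% with merged exons). Prkab2 was at 55.1% with the longest and 71.7% with the mean coding transcript (62.9%), Prkag2 at 67.6% and 58.7% (52.8%), and Stradb at 47.5% with the longest (43.9%). The gamma share difference ran from -0.805 to 1.10 points with a library left out. Log2 fold changes near 0 changed sign: Prkag1 was -0.0023 with the block, -0.021 with protein-coding genes alone and -0.077 to 0.092 with a library left out, Prkag2 -0.015 with protein-coding genes alone and -0.013 to 0.045 with a library left out, Prkaa1 -0.086 to 0.036, and Cab39 -0.00067 to 0.20. Levels per kilobase moved by more than the larger s.d. within a group in 17 of 20 comparisons with other lengths.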
